A study of Homo sapiens with 6 samples.

Results

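The miRNAs described here were grouped as ones made outside the usual route of Drosha cleavage. How each was made was not measured in these data. They were chosen by name, with no measured value in the rule: hsa-miR-320a, hsa-miR-320b, hsa-miR-320c, hsa-miR-320d, hsa-miR-320e, hsa-miR-484, hsa-miR-877-5p, hsa-miR-1246 and hsa-miR-1290. All 9 were found among the 2588 mature miRNAs counted. Small RNA libraries had been made from total RNA of A549, which derives from a lung adenocarcinoma, and of BEAS-2B, which derives from immortalised bronchial epithelium. Both are established human lines, of wild-type genotype per the labels. Each line was kept for 48 h in RPMI1640 medium with low serum and either no TGF-β1, or TGF-β1 at 1 or 5 ng/mL. The methods of the paper describe this medium with fetal bovine serum and name no low-serum step. TGF-β1 is a cytokine that moves epithelial cells toward a mesenchymal state, and the study asked which miRNAs differ with it. The dose of 1 ng/mL is called low and that of 5 ng/mL high below. With 6 libraries, 1 for each line and dose, replicate error could not be measured and no p-value was computed.

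In the usual route the nuclear enzyme Drosha cuts a hairpin out of a long transcript, exportin-5 carries it to the cytoplasm and Dicer trims it to the mature miRNA. The miR-320 hairpin and miR-484 bypass the first cut, because the hairpin starts at the capped 5′ end of its own transcript. A mirtron such as miR-877 is released by splicing, as a whole short intron that folds into a hairpin, and miR-1246 has been described as a fragment of U2 small nuclear RNA, a core part of the spliceosome. The capped route is established for the hairpin of miR-320a, and miR-320b to miR-320e are grouped with it here by sequence and name.

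RefSeq held the mature sequence of 8 of the 9 miRNAs on GRCh38.p14, all but miR-320a. The sequences printed first are of the miR-320 family, because their likeness decides how far the counts of its members can be separated. Capitals mark the seed, bases 2 to 8, which chooses targets.

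hsa-miR-320b: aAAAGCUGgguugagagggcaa
hsa-miR-320c: aAAAGCUGgguugagagggu
hsa-miR-320d: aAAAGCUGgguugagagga
hsa-miR-320e: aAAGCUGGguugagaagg

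Counting positions from the 5′ end of miR-320b, the substitution was C20U in miR-320c, G19A in miR-320d and G17A in miR-320e. miR-320c shared a run of 19 bases with miR-320b, miR-320d one of 18 bases and miR-320e one of 15 bases. The seed of miR-320b, miR-320c and miR-320d was the same, and that of miR-320e was shifted by 1 base. Among the miRNAs with a sequence there, the only other one with the shared seed, miR-4429, had between 1 and 4 reads in a library. miR-320a, without a sequence, could not enter these comparisons. A trimmed read of the shared run could come from several of these genes, and how such reads were assigned is not given in the sources used here, so the summed miR-320 count is given beside the single members.

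The genes of the family lay in different surroundings on GRCh38.p14. MIR320B1 (chr1:116671746-116671817, + strand) overlapped no annotated gene, whereas MIR320B2 (chr1:224257040-224257110, - strand) lay in an intron of NVL. MIR320E (chr19:46709282-46709354, - strand) lay in an intron of PRKD2 on the same strand. MIR320C1 (chr18:21683518-21683589, + strand) and MIR320C2 (chr18:24321675-24321746, + strand) lay opposite introns of ABHD3 and OSBPL1A, and MIR320D1 (chr13:40727816-40727887, - strand) and MIR320D2 (chrX:140926160-140926231, - strand) overlapped no gene.

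The next sequences show the capped-transcript and mirtron members, with the seed in capitals.

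hsa-miR-484: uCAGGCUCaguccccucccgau
hsa-miR-877-5p: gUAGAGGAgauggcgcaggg
hsa-miR-877-3p: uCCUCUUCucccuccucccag

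The seed of miR-484 was shared by miR-3155a and miR-3155b, which had at most 2 reads in a library. On GRCh38.p14 the MIR484 hairpin (chr16:15643294-15643372, + strand) began 27 bases from the annotated start of NDE1, in exonic untranslated sequence of the same strand. The MIR877 hairpin of 86 bases (chr6:30584332-30584417, + strand) coincided exactly with a whole intron of ABCF1 in 3 annotated transcripts. It is shown because its ends, in capitals, are the GU and AG of a spliced intron, and miR-877-5p and miR-877-3p are its 2 ends.

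MIR877: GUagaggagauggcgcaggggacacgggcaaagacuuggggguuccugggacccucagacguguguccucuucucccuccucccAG

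The sequences of miR-1246 and miR-1290 are set beside the stretch of U2 small nuclear RNA that resembles them. In the miRNAs capitals mark the seed, and in RNU2-1 (chr17:43233787-43233977, - strand, GRCh38) they mark the bases aligned with miR-1246.

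hsa-miR-1246: aAUGGAUUuuuggagcagg
hsa-miR-1290: uGGAUUUUuggaucaggga
RNU2-1: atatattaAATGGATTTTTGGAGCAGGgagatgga

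All 19 bases of miR-1246 matched RNU2-1 at positions 94 to 112 of its 191 bases, and the same match was present in 7 of 71 annotated U2 genes and pseudogenes. miR-1290 matched 18 of 19 bases of RNU2-1 at positions 96 to 114, with the difference T13G counted from the 5′ end of the miRNA, and it matched exactly in 0 of the 71. The 2 miRNAs had a run of 12 bases in common, and their seeds differed. MIR1246 has its own annotated hairpin (chr2:176600980-176601052, - strand), which overlapped no gene. The counts do not separate reads of that hairpin from reads of U2.

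The libraries held between 633318 and 900424 counted reads, of which the 9 miRNAs took between 0.394% and 0.786%. hsa-miR-21-5p, the most abundant miRNA, took 35.4% of the BEAS-2B control and between 47.6% and 57.2% of the other 5 libraries, and the BEAS-2B control had the highest scaling factor, 1.32 against 0.829 to 1.02. Each BEAS-2B comparison with the control therefore leans on that library, and the comparison of 5 with 1 ng/mL and the ratios within a library, which need no scaling, are given beside it. The epithelial list, 6 miRNAs of the miR-200 family and miR-205-5p, summed to between 219 and 472 reads, of which miR-200b-3p had 139 to 356 and miR-205-5p at most 2. Blood and muscle lists of 3 miRNAs each had at most 4 and 3 reads, the neuronal miR-9-5p had 314 to 484 reads in A549 and 8 in every BEAS-2B library while miR-124-3p had at most 1, and the hepatocyte miR-122-5p had 1 to 14. In bulk libraries a smaller number of expressing cells and less RNA per cell cannot be told apart.

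Normalised counts were counts scaled to a common library size by the trimmed mean of M-values (TMM), and ND was log2(normalised count + 1). A miRNA was past the criteria of the study when ND reached 8, a normalised count of 255, in the higher library and the fold change was at least 1.4. The intervals are 95% exact Clopper-Pearson intervals and cover counting error only. A count of 0 allows up to 3 reads, or 2.31 to 3.49 normalised counts depending on the library. Of the 9 miRNAs, 5 reached an ND of 8 in some library, miR-320a, miR-320b, miR-484, miR-1246 and miR-1290. miR-320c and miR-320d had 80 to 168 reads, and miR-320e and miR-877-5p had 0 to 9.

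**Figure D1:**
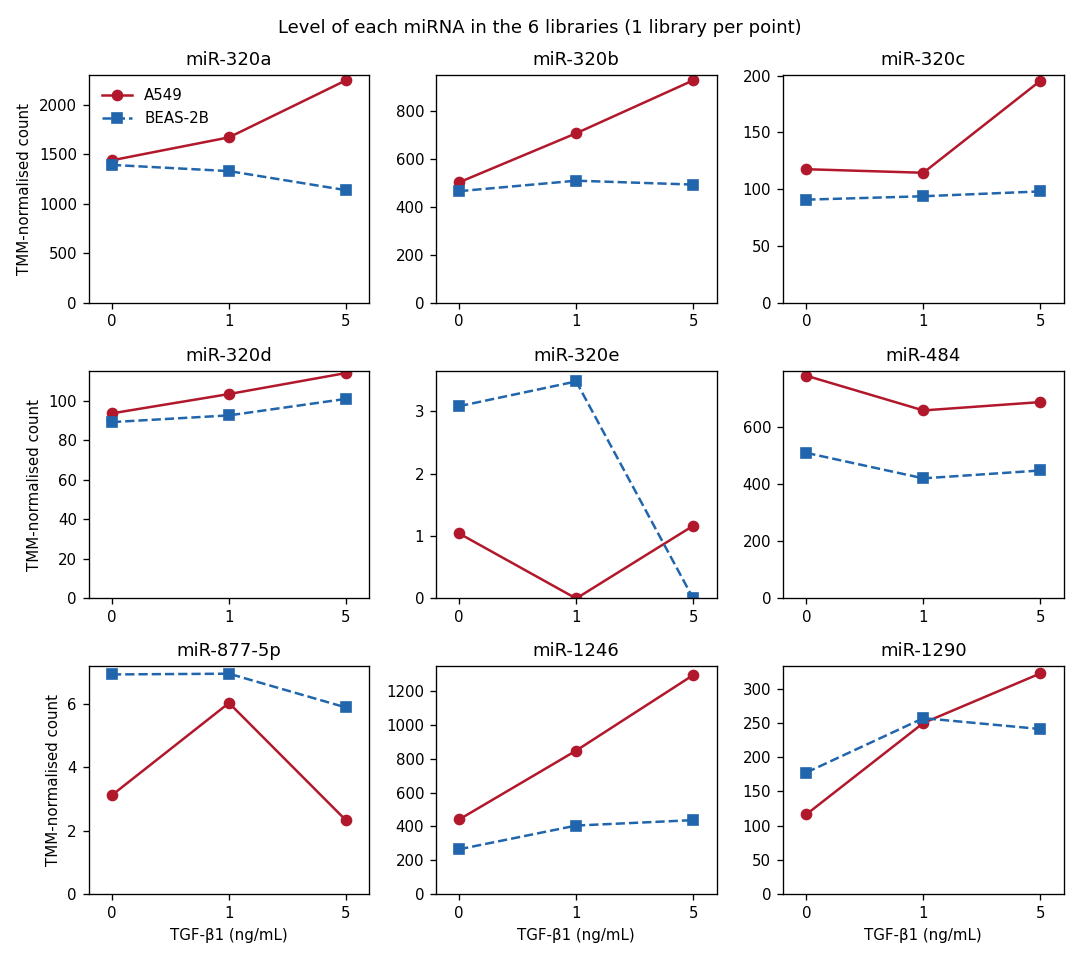
TMM-normalised counts (vertical axes, from 0, a different scale in each panel) of the 9 miRNAs at 0, 1 and 5 ng/mL TGF-β1 in A549 (red circles) and BEAS-2B (blue squares), 1 library per point and no error bars. miR-1246 climbed from 441 to 1293 in A549 and from 265 to 437 in BEAS-2B, whereas miR-320a climbed in A549 and declined in BEAS-2B, and miR-320e and miR-877-5p stayed under 7 normalised counts.

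The U2-like miR-1246 had the largest increase of the 9 in A549 at the high dose. Its reads numbered 424 in the control, 844 at the low and 1111 at the high dose, or normalised counts of 441, 847 and 1293. The BEAS-2B libraries had 345, 350 and 446 reads, or normalised counts of 265, 405 and 437. The treated libraries were thus above their control in both lines, with the higher level at the high dose, and by TMM every A549 library was above every BEAS-2B library. The A549 control and the BEAS-2B library at the high dose lay side by side in that order, at 441 and 437, and in CPM, counts scaled by the library total alone, their order turned, to 537 and 581.

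In A549 miR-1246 was 2.93-fold higher at the high dose than in the control (log2 ratio 1.55, 95% interval 1.39 to 1.72) and 1.92-fold higher at the low dose (0.94, 0.77 to 1.11). The step from the low to the high dose was 1.53-fold (0.61, 0.48 to 0.74). In BEAS-2B it was 1.65-fold higher at the high dose (0.72, 0.51 to 0.93) and 1.52-fold higher at the low dose (0.61, 0.39 to 0.83). The BEAS-2B libraries at 1 and 5 ng/mL differed by less than counting error (0.11, -0.10 to 0.32).

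The size of the BEAS-2B increase depended on the scaling, and its raw reads were 345 in the control and 350 at the low dose. Over 7 scalings the log2 ratio at the high dose ran from 0.31 to 0.90 in BEAS-2B and from 1.18 to 1.71 in A549, with all values above 0. miR-1246 was past the criteria under 7 of the 7 in A549 and under 5 of the 7 in BEAS-2B.

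The other U2-like miRNA, miR-1290, moved the same way from a lower level. It had 112, 249 and 277 reads in A549 at 0, 1 and 5 ng/mL, or normalised counts of 117, 250.0 and 322. In BEAS-2B it had 231, 222 and 246 reads, or 178, 257 and 241. The A549 control was the lowest of the 6 libraries and A549 at the high dose the highest. At the high dose the order of the lines was thus the reverse of that in the controls. At the low dose A549, at 250.0, was still just below BEAS-2B, at 257.

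In A549 miR-1290 was 2.75-fold higher at the high dose (log2 ratio 1.46, 95% interval 1.15 to 1.80) and 2.14-fold higher at the low dose (1.09, 0.77 to 1.44). The second of these was not past the criteria, because its ND of 7.97 fell just short of 8. In BEAS-2B the log2 ratio was 0.53 (0.26 to 0.80) at the low dose, past the criteria with an ND of 8.01, and 0.44 (0.18 to 0.71) at the high dose, with an ND of 7.92. The 2 treated BEAS-2B libraries differed by less than counting error (-0.09, -0.36 to 0.18). Total-count scaling left a BEAS-2B log2 ratio of 0.03 at the high dose and 0.10 at the low dose.

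Reads of miR-1290 per read of miR-1246, a quantity that no scaling changes, differed between the lines and little with dose. The ratio was 0.264 (95% interval 0.213 to 0.326) in the A549 control, 0.295 at the low dose and 0.249 at the high dose. In BEAS-2B it was 0.670 (0.564 to 0.793), 0.634 and 0.552. The lowest BEAS-2B ratio lay above the highest A549 ratio, and their intervals did not overlap. The BEAS-2B control had 2.53 times the ratio of the A549 control (1.93 to 3.34), and at the high dose the factor was 2.21 (1.79 to 2.73).

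With treatment at the high dose the same ratio was multiplied by 0.944 in A549 (0.734 to 1.22) and by 0.824 in BEAS-2B (0.652 to 1.04). Both intervals include no change, so a moderate fall or a small rise of the ratio in BEAS-2B is within counting error. The ratio is one of reads and not of molecules, since small RNA libraries capture sequences unequally.

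**Figure D2:**
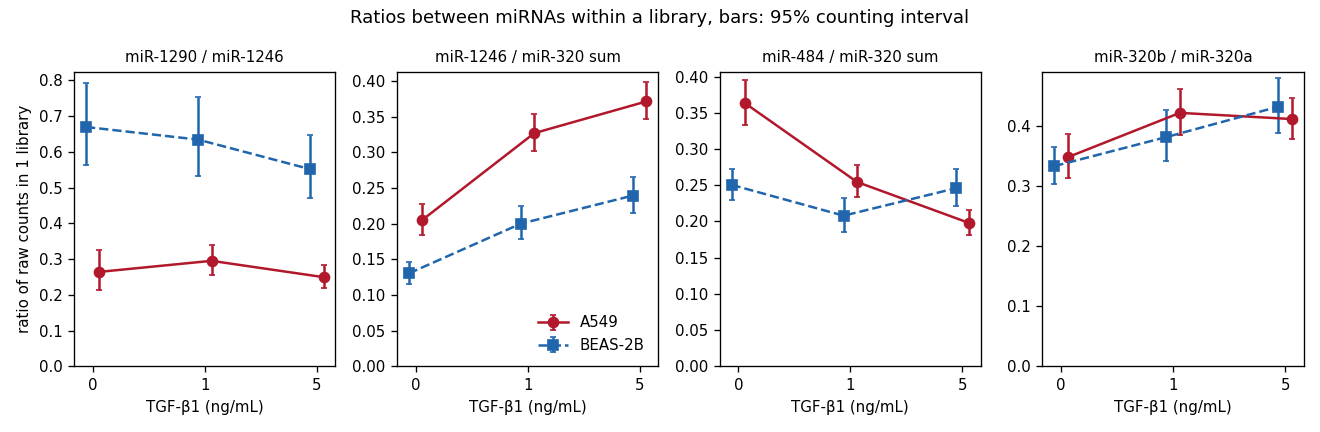
Ratios of raw counts within a library (vertical axes, from 0) against TGF-β1 dose in A549 (red circles) and BEAS-2B (blue squares), with 95% counting intervals as bars. The ratio of miR-1290 to miR-1246 separated the lines at every dose, that of miR-1246 to the summed miR-320 count was higher in treated libraries of both lines, and that of miR-484 to the miR-320 sum fell from 0.363 to 0.198 in A549 and went from 0.250 to 0.246 in BEAS-2B.

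The summed miR-320 family was higher at each dose in A549 and not in BEAS-2B. miR-320a, its most abundant member, had 1382, 1663 and 1930 reads in A549 at 0, 1 and 5 ng/mL, or normalised counts of 1438, 1670 and 2246. BEAS-2B had 1809, 1148 and 1159 reads, or 1392, 1329 and 1136. The controls of the 2 lines were close, and the treated libraries moved apart in opposite directions, up in A549 and down in BEAS-2B.

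At the high dose miR-320a was 1.56-fold higher in A549 (log2 ratio 0.64, 95% interval 0.54 to 0.74), and at the low dose it was 1.16-fold higher (0.22, 0.11 to 0.32). In BEAS-2B the log2 ratio was -0.29 at the high dose (-0.40 to -0.19) and -0.07 at the low dose (-0.17 to 0.04). The BEAS-2B libraries at the high and low doses, a comparison without the control, differed by -0.23 (-0.35 to -0.11). Of the values against control, the first A549 value was past the criteria, and the other 3 were not. Under total-count scaling and under TMM from the more abundant miRNAs alone, the lower BEAS-2B level at the high dose was past the criteria too. Over 7 scalings the log2 ratio at the high dose ran from -0.70 to -0.11 in BEAS-2B and from 0.27 to 0.80 in A549. The lowest A549 value, under upper-quartile scaling, was not past the criteria.

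The second most abundant member, miR-320b, had 482, 703 and 796 reads in A549, or normalised counts of 502, 706 and 926. The reads in BEAS-2B were 604, 439 and 502, or 465, 508 and 492. The A549 levels stepped up at each dose, and the 3 BEAS-2B levels lay close together. In A549 it was 1.85-fold higher at the high dose (log2 ratio 0.88, 0.72 to 1.05) and 1.41-fold higher at the low dose (0.49, 0.32 to 0.66), both past the criteria. The first was past under 7 of 7 scalings and the second under 1 of 7, TMM over the 6 libraries, with a log2 ratio down to 0.22 under upper-quartile scaling. The BEAS-2B log2 ratios of 0.08 (-0.09 to 0.26) and 0.13 (-0.05 to 0.31) did not differ from 0 beyond counting error, nor did the high dose from the low dose (-0.05, -0.23 to 0.14).

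The lesser members had too few reads to reach an ND of 8. miR-320c had 113, 114 and 168 reads in A549 against 118, 81 and 100 in BEAS-2B. miR-320d had 90, 103 and 98 reads in A549 against 116, 80 and 103 in BEAS-2B. For miR-320c the A549 library at the high dose stood above the other 5, with a log2 ratio to its control of 0.73 (0.38 to 1.09). For miR-320d the log2 ratio was 0.28 (-0.14 to 0.71) in A549 and 0.18 (-0.22 to 0.57) in BEAS-2B at the high dose, within counting error. miR-320e had 1, 0 and 1 reads in A549 against 4, 3 and 0 in BEAS-2B, at which depth no difference was detectable.

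Summed over its 5 members the family had normalised counts of 2152, 2593 and 3483 in A549 against 2039, 2027 and 1827 in BEAS-2B. The controls again lay close together, and the A549 library at the high dose was the highest of the 6. The summed log2 ratio at the high dose was 0.69 (0.61 to 0.78) in A549 and -0.16 (-0.24 to -0.07) in BEAS-2B. Between the high and low doses in BEAS-2B it was -0.15 (-0.24 to -0.05). Over 7 scalings it ran from 0.32 to 0.85 in A549 and from -0.57 to 0.02 in BEAS-2B, so the sign in BEAS-2B turned under the total count without miR-21-5p.

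In A549 the shares of miR-320a to miR-320d in the family varied less than its summed level, which ran from 2152 to 3483. In BEAS-2B, where the sum ran from 1827 to 2039, this did not hold for miR-320b, miR-320c and miR-320d. miR-320a took between 62.2% and 68.2% of the family reads in each library, miR-320b between 22.8% and 27.2%, miR-320c between 4.41% and 5.61% and miR-320d between 3.27% and 5.53%. Reads of miR-320b per read of miR-320a were 0.349, 0.423 and 0.412 in A549 against 0.334, 0.382 and 0.433 in BEAS-2B at 0, 1 and 5 ng/mL. Both controls had the lowest ratio of their line. From control to the high dose the ratio was multiplied by 1.18 in A549 (1.03 to 1.35) and by 1.30 in BEAS-2B (1.13 to 1.49), beyond counting error in both. The ratio of miR-320d to miR-320a was multiplied by 1.39 in BEAS-2B (1.04 to 1.84) and by 0.780 in A549 (0.575 to 1.06). Whether reads passed between near-identical members in the counting was not tested.

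miR-484 did not share the A549 increase of miR-320a, the other miRNA with a capped hairpin. It had 751, 657 and 592 reads in A549, or normalised counts of 781, 660 and 689, and 664, 364 and 458 reads in BEAS-2B, or 511, 421 and 449. Both controls were the highest library of their line, and by TMM all A549 levels were above all BEAS-2B levels. In CPM that order did not hold, with 730 in A549 at the low dose and 903 in the BEAS-2B control. The log2 ratio at the high dose was -0.18 (-0.34 to -0.02) in A549 and -0.19 (-0.36 to -0.01) in BEAS-2B, and at the low dose it was -0.24 (-0.40 to -0.09) and -0.28 (-0.47 to -0.09). These 4 differences were small and under the fold criterion, although each interval excludes 0. The differences at the high dose were of like size in the 2 lines, with a gap of 0.00 (-0.23 to 0.24) between them, but over 7 scalings that gap ran from -0.31 to 0.57. Over 7 scalings the log2 ratio at the high dose ran from -0.55 to -0.02 in A549 and from -0.60 to -0.0045 in BEAS-2B, so its size was not settled. The treated BEAS-2B libraries differed by less than counting error (0.09, -0.11 to 0.29).

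Set against the miR-320 sum within a library, miR-484 had ratios of 0.363, 0.254 and 0.198 in A549 against 0.250, 0.208 and 0.246 in BEAS-2B. The A549 ratio fell at each dose, whereas in BEAS-2B the control and the 5 ng/mL library had nearly the same value. From control to the high dose it was multiplied by 0.545 in A549 (0.481 to 0.616) and by 0.981 in BEAS-2B (0.857 to 1.12), and on the log2 scale the 2 changes differed by -0.85 (-1.11 to -0.59).

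The ratio of miR-1246 to the miR-320 sum changed alike with dose in the 2 lines, from a higher level in A549. It was 0.205, 0.327 and 0.371 in A549 against 0.130, 0.200 and 0.239 in BEAS-2B, a step up at each dose in both. The A549 ratio was 1.58 times that of BEAS-2B in the controls (1.35 to 1.84) and 1.55 times at the high dose (1.37 to 1.76). From control to the high dose it was multiplied by 1.81 in A549 (1.60 to 2.06) and by 1.84 in BEAS-2B (1.57 to 2.15), and the log2 changes differed by -0.02 (-0.31 to 0.26). Relative to the miR-320 family, the shift of miR-1246 thus differed between the lines by less than counting error. Against miR-484, miR-1246 was multiplied by 3.32 in A549 (2.84 to 3.89) and by 1.87 in BEAS-2B (1.55 to 2.26). For reads of miR-484 per read of miR-1246 the log2 changes in A549 and BEAS-2B differed by -0.83 (-1.17 to -0.48), beyond counting error. The likeness of the lines thus held against the miR-320 sum and not against miR-484.

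miR-877-5p, from the 5′ end of the mirtron, had 3, 6 and 2 reads in A549 against 9, 6 and 6 in BEAS-2B, and miR-877-3p had 0, 4 and 0 reads and 5, 2 and 1. The log2 ratio of miR-877-5p at the high dose was -0.20 in BEAS-2B with an interval of -2.01 to 1.42, so a difference was not detectable at this depth, and both A549 counts were at or under the floor of 3 reads. The other listed mirtron products were as scarce. Of the 19 names on a mirtron list that includes miR-877-3p, none had 10 reads in any library, 8 had 0 reads in all 6, and all 19 together had 4 to 14 reads in a library.

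**Figure D3:**
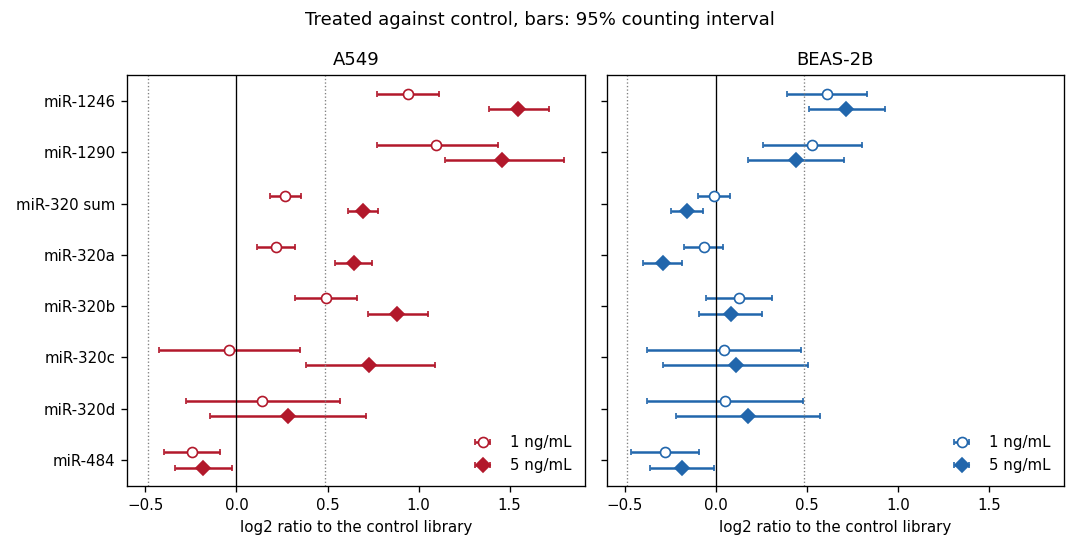
Log2 ratio of each treated library to the control of its line (horizontal axis) for miR-1246, miR-1290, the summed miR-320 family, its 4 most abundant members and miR-484, at 1 ng/mL (open circles) and 5 ng/mL (filled diamonds); bars are 95% counting intervals and dotted lines mark 1.4-fold. In A549 both U2-like miRNAs lay beyond 1.4-fold at both doses and the miR-320 sum at the high dose, whereas in BEAS-2B all miR-320 values lay within 1.4-fold.

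Counted over the members, at the high dose in A549 4 of the 5 that met the ND criterion were past the criteria and all 4 were higher, where 53.2% of the 141 miRNAs that met it were past. At the low dose 2 of 4 were past, both higher, against 48.9% of 137, and between 5 and 1 ng/mL 1 of 5, miR-1246, against 16.9% of 130. The median log2 ratio of the members that met the ND criterion was 0.88 at the high dose, beside -0.03 over all miRNAs that met it. Some markers moved in the same A549 libraries. The epithelial list summed to normalised counts of 228, 386 and 346 at 0, 1 and 5 ng/mL. Log2 ratios at the high dose were 0.71 (0.40 to 1.04) for miR-200b-3p and 1.31 (0.15 to 2.81) for miR-429. Those of miR-200a-3p, 0.31 (-0.38 to 1.03), and miR-200c-3p, 0.12 (-0.59 to 0.83), were within counting error. The rest of the list had fewer than 10 reads in every library. In BEAS-2B the list summed to 363, 344 and 325. There miR-200a-3p was lower at the high dose (-0.78, -1.43 to -0.18), and the other intervals include 0. The part of these markers in the members' values was not tested. With so few members these shares are a description and nothing particular to the members is read from them. Under upper-quartile scaling 3 were higher and 1, miR-484, was lower at the high dose, and 1 was higher and 1 lower at the low dose.

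In BEAS-2B 1 of 4 was past the criteria at the high dose, miR-1246, against 36% of 125 miRNAs. At the low dose it was 2 of 5, miR-1246 and miR-1290, against 29.2% of 120, and between 5 and 1 ng/mL it was 0 of 5, against 6.61% of 121. The median of the members was -0.05 at the high dose, beside -0.08 over all. Under total-count scaling miR-1246 and miR-1290 stayed above the control at each dose, and neither was past the criteria. By TMM miR-1290 had been past at the low dose only. Under total-count scaling 2 other members, miR-320a and miR-484, were past as lower at each dose. TMM from the more abundant miRNAs left 1 lower at the high dose and 0 at the low dose. Relative to TMM, total-count scaling moved the median of all miRNAs by -0.41 at the high dose and -0.43 at the low dose in BEAS-2B, and by 0.16 and -0.14 in A549.

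**Figure D4:**
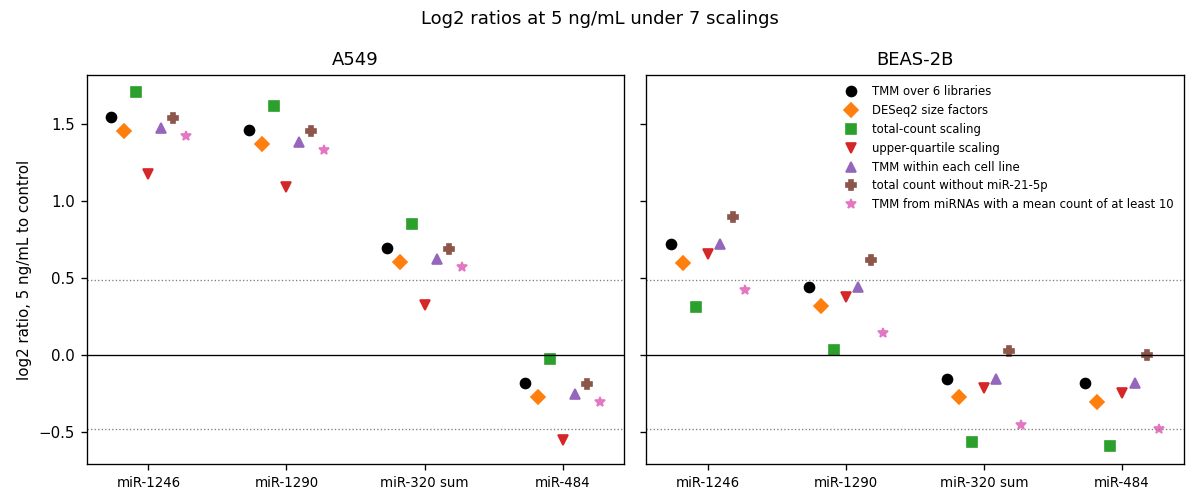
Log2 ratio of the 5 ng/mL library to the control (vertical axis) for miR-1246, miR-1290, the miR-320 sum and miR-484 under 7 scalings, in A549 (left) and BEAS-2B (right); dotted lines mark 1.4-fold and there are no error bars. miR-1246 stayed above 0 under all 7 in both lines, from 1.18 to 1.71 in A549 and from 0.31 to 0.90 in BEAS-2B, and miR-484 stayed below 0.

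The untreated lines were compared to ask how far the members differed before TGF-β1. In the controls miR-484 and miR-1246 were past the criteria, both higher in A549, 2 of the 4 that met the ND criterion against 68.9% of 135 miRNAs. The log2 ratio of A549 to BEAS-2B was 0.61 for miR-484, 0.73 for miR-1246 and 0.08 for the miR-320 sum, and it was -0.60 for miR-1290, which did not reach the ND criterion. At the low dose the same 2 were past, of 5 that met the criterion, against 64.3% of 143. At the high dose miR-320a (0.98) and miR-320b (0.91) joined them, 4 of 5 against 67.8% of 146, and miR-1246 had the largest gap, 1.56. The control result rested on the scaling: under total-count scaling only miR-320a was past and it was lower in A549, and under TMM from the more abundant miRNAs none was. The call of miR-484 rested on the scaling at the low and high doses too, past under 3 of 6 scalings at each. There miR-1246 was past under 6 of 6 at both doses, and miR-320a and miR-320b under 6 of 6 at the high dose.

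The effect of dose in A549 minus that in BEAS-2B, on the log2 scale at the high dose, was 0.94 for miR-320a (0.79 to 1.08), 0.80 for miR-320b (0.56 to 1.04), 0.83 for miR-1246 (0.57 to 1.09) and 1.02 for miR-1290 (0.61 to 1.43). Over 7 scalings the gap stayed above 0 for all 4, with the lowest value at 0.62, 0.49, 0.52 and 0.71 in the same order and the highest at 1.59, for miR-1290. At the low dose the gap was 0.28 for miR-320a and 0.33 for miR-1246, and for both its sign turned under 1 or more scalings, reaching -0.05 for miR-320a and -0.00081 for miR-1246. It was 0.36 for miR-320b (0.12 to 0.61) and 0.56 for miR-1290 (0.15 to 0.98). For these it stayed above 0 over 7 scalings, with lowest values of 0.03 and 0.23. Each interval covers counting error only, and with 1 library per group the difference between lines was not tested against the spread between cultures.

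Among 12 miRNAs in the files from other structured RNAs or made without Dicer, 6 had 10 or more reads in a library. miR-1291, which derives from a small nucleolar RNA, had 368, 293 and 268 reads in A549 against 243, 222 and 376 in BEAS-2B, with log2 ratios at the high dose of -0.30 (-0.53 to -0.07) and 0.98 (0.74 to 1.22). It was past the criteria in BEAS-2B and not in A549, and whether the lines differ was not tested. The tRNA-like miR-1260a had log2 ratios of 0.76 (A549) and 0.73 (BEAS-2B), and miR-1260b of 1.04 and 0.31, without reaching an ND of 8. miR-664a-3p, miR-1248 and miR-4454 had at most 28, 12 and 13 reads, and the Dicer-independent miR-451a had at most 2.

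The miRNAs whose profile was most like each member over the 6 libraries were taken from 179 with a mean normalised count of at least 100, by the root-mean-square distance of ND centred on its mean. For miR-320a they were miR-3615 (distance 0.105), miR-3184-5p (0.151) and miR-423-3p (0.179), the last 2 of which lie opposite each other on the genome, so that without strand their reads cannot be told apart. For miR-320b they were let-7e-5p (0.175), miR-99b-3p and miR-589-5p. miR-484 had the closest neighbours, miR-1307-3p (0.083), miR-30d-5p and miR-3184-3p (0.105), and miR-1246 the most distant, miR-218-5p (0.319), miR-99b-5p (0.356) and miR-589-5p (0.380). For miR-1290 they were miR-151a-3p (0.163), miR-125b-1-3p and miR-1260b. The median distance over the 179 was 0.62 for miR-320a and 0.90 for miR-1246.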

How the data were processed

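Small RNA libraries were sequenced from A549 and BEAS-2B cells, 1 library for each of 6 groups defined by the labels (line and TGF-β1 dose). The deposited values were raw counts of reads per mature miRNA for 2588 miRNAs, as whole numbers. Bowtie2 and bedtools are named in the submitters' processing notes, without versions. The genome build, the miRNA annotation, the use of strand and the treatment of reads that fit several miRNAs are not given in the sources used here. No molecular identifiers were mentioned.

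From these counts, TMM factors over all 6 libraries were computed with edgeR 4.0.16 in R 4.3.3, and normalised counts refer to the mean effective library size of 749498. Ratios were taken with a pseudocount of 1, and their 95% intervals by the exact Clopper-Pearson method for the share of 1 library in the 2 counts. Ratios between miRNAs within a library used raw counts, and differences of changes between lines a normal interval from the counts. With 1 library per group no test was made. Total counts of 633318 to 900424 per library set the precision. Other tools were Python 3.11.15, numpy 2.4.6, pandas 2.3.3, scipy 1.17.1 and matplotlib 3.10.9. The intervals were tested on simulated counts that held counting error only, after the scaling offset was removed. That test does not reach scaling error or the spread between cultures.

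The miRNAs described and the lists of mirtrons, structured RNA-derived miRNAs and markers were chosen with earlier results of these data known. All members were named, together with the other arm of the mirtron, miRNAs sharing a seed, and list members with at least 10 reads in a library. The 3 most alike non-member miRNAs of each member that reached an ND of 8 were named too. Beside these, miR-124-3p, miR-205-5p and miR-451a were named to show markers near 0. Mature and hairpin sequences came from RefSeq on GRCh38.p14, and host genes and U2 sequences from GENCODE release 29 on GRCh38. Alternatives were DESeq2 1.42.0 size factors, total counts, upper quartiles, TMM within each line, total counts without miR-21-5p, TMM from miRNAs with a mean count of at least 10, ND of at least 7 or 9, a minimum fold of 2, a whole interval past 1.4-fold, and pseudocounts of 0.5 and 10.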

Additional observations from a re-analysis of the deposited data

Results flagged for a closer look

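miR-320a, and through it the summed miR-320 count, lay above the control in both treated A549 libraries and below it in both treated BEAS-2B libraries, which is why they are listed here. In BEAS-2B the log2 ratios at 5 ng/mL were 0.08 (-0.09 to 0.26) for miR-320b, 0.11 (-0.29 to 0.51) for miR-320c and 0.18 (-0.22 to 0.57) for miR-320d. They were below 0 under 3, 3 and 2 of 7 scalings, so their direction was not settled. miR-320e, with 4 reads in the BEAS-2B control and 0 at 5 ng/mL, was too scarce to read. At 1 and 5 ng/mL the log2 ratio of miR-320a was 0.22 and 0.64 in A549 against -0.07 and -0.29 in BEAS-2B, a gap between lines of 0.94 at 5 ng/mL. For the summed miR-320 count the values were 0.27 and 0.69 in A549 cells and -0.01 and -0.16 in BEAS-2B cells, a gap of 0.85 at 5 ng/mL. The difference between lines was not tested, since each group had 1 library. In BEAS-2B cells miR-320a was below its control under 7 of 7 scalings at both doses, and in A549 cells it was above its control under 7 of 7 (5 ng/mL) and 6 of 7 (1 ng/mL). The interval of the BEAS-2B sum at 1 ng/mL, -0.10 to 0.08, includes 0. The BEAS-2B sum was above its control under 1 of 7 scalings at 5 ng/mL and 2 of 7 at 1 ng/mL. The BEAS-2B control also had the lowest share of miR-21-5p, 35.4%, and the part of that library in the gap was not tested.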

How the results depend on the processing

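Of 105 recomputed counts of members past the criteria, 72 stayed within 1.5 times the value reported. That comparison ignores which members were past and in which direction. In BEAS-2B cells at 1 ng/mL total-count scaling kept the count at 2, with miR-320a and miR-484 lower in place of miR-1246 and miR-1290 higher. At 5 ng/mL TMM from the more abundant miRNAs kept it at 1, with miR-320a lower in place of miR-1246 higher. With a fold change of at least 2 the count in A549 cells was 2 at 5 ng/mL, 0 at 1 ng/mL and 0 between those doses, it was 0 at both doses in BEAS-2B cells, and 0, 1 and 1 between the lines at 0, 1 and 5 ng/mL. With an interval wholly beyond 1.4-fold it was 1 in A549 cells at 1 ng/mL and 0 between doses, 0 in BEAS-2B cells at 1 ng/mL, and 1 between the lines at 0 and at 1 ng/mL. An ND of at least 9 gave 0 in BEAS-2B cells at each dose and 1 between the untreated lines, and an ND of at least 7 gave 2 between the A549 doses. In A549 cells at 1 ng/mL the count was 1 under DESeq2 size factors, total-count scaling, TMM within each line, total counts without miR-21-5p, TMM from miRNAs with a mean count of at least 10, and a pseudocount of 10, because miR-320b was at the fold threshold. In BEAS-2B cells it was 1 with DESeq2 size factors and 0 with TMM from the more abundant miRNAs at 1 ng/mL, and at 5 ng/mL it was 2 under total-count scaling and 2 under total counts without miR-21-5p. Total-count scaling gave 4 between the A549 doses and 1 between the lines at 0 and at 1 ng/mL. Between the lines, TMM from the more abundant miRNAs gave 0 at 0 ng/mL and 1 at 1 ng/mL, and upper-quartile scaling gave 1 at 1 ng/mL. Of 621 recomputed log2 ratios 514 stayed inside the 95% counting interval, 107 left it, and none that was past the criteria changed sign. No paired analysis was possible because each line and dose had 1 library and the labels give no replicate numbers. Depth limited miR-320e and miR-877-5p, with at most 9 reads, to no statement on treatment, and 1 library per group leaves the spread between cultures unmeasured.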
